A study of Mus musculus with 8 samples.

Results

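Mural cells, the pericytes and vascular smooth muscle cells that wrap brain vessels, were followed through 10 genes in the frontal cortex of WT and HAR123-KO mice. The genes were chosen by name as known mural and smooth muscle genes, namely Pdgfrb, Rgs5, Vtn, Notch3, Acta2, Tagln, Myh11, Myl9, Flna and Synpo2, and are 10 of the 55536 genes in the count table. Earlier results of these data were known when they were chosen. HAR123 is a conserved enhancer that lies within the Smg6 gene, and the knockout mice carry a CRISPR-Cas9 deletion of it made in C57BL/6J zygotes and backcrossed to C57BL/6J. WT littermates, which lack the deletion, served as controls, and both groups were 8 weeks old. Each genotype had 4 bulk total RNA libraries. Nothing in the sources used here ties each library to a separate animal, so p-values measure the spread between these libraries.

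Mural cells share the vascular basement membrane with the endothelium. Endothelial cells release PDGF-B, which binds the receptor encoded by Pdgfrb and recruits and maintains pericytes, while Notch3 receives Jagged ligands and matures arterial smooth muscle. Smooth muscle contracts through smooth muscle actin and myosin, whose genes are switched on by serum response factor (Srf) with myocardin-family partners at CArG boxes. Capillary pericytes of the mouse brain carry little of this contractile machinery, which is concentrated in cells around arterioles.

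The libraries held 13528251 to 17051001 counts, of which 55.09% to 58.05% fell on Gm42418, a gene that overlaps ribosomal RNA sequence. Nuclear protein-coding genes received 2786320 to 3732172 counts per library, and this is the depth behind the mural values. The neuronal genes Snap25 (7275 ± 132 normalized counts in WT) and Rbfox3 (1008 ± 15.9; SD, n = 4) were abundant. Genes of neighbouring tissue were present too and differed by genotype. The summed level of 10 striatal genes was 4337 to 4492 in WT and 5758 to 5945 in HAR123-KO libraries, and that of 10 choroid plexus genes was 955 to 1009 and 1869 to 1988. Most of the WT choroid plexus sum was Enpp2, which oligodendrocytes also express (889 in WT, 1197 in HAR123-KO on average), while Ttr, the transthyretin gene that marks the choroid plexus, was at 68.2 ± 5.15 and 641 ± 19.4. The part of this difference in the mural results was not tested.

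Of the 10 mural genes, Synpo2 passed the threshold and was higher in HAR123-KO, and none fell by DESeq2. The threshold was a DESeq2 adjusted p under 0.05 with an absolute log2 fold change over 0.5. Only 6 genes had enough counts for DESeq2 to give an adjusted p (Pdgfrb, Rgs5, Vtn, Notch3, Flna and Synpo2), so the count is 1 of 6, where 0.298% of the 12758 genes tested passed in either direction and 0.227% passed as higher. Synpo2 was already in the paper's own list of genes that differed in this tissue, so these shares are descriptions and no independent support. The same single gene had an adjusted p under 0.05 at any fold, against 1.69% of all genes (0.972% higher, 0.713% lower). By unadjusted p under 0.05, 3 of these 6 genes differed, with Synpo2 and Rgs5 higher and Vtn lower, against 8.78% of the genes tested (4.51% higher, 4.27% lower). Normalized counts of the genotypes did not overlap for Synpo2 and Vtn, 2 of the 6 and of all 10 genes, against 7.67% of the genes tested (4.02% with HAR123-KO higher, 3.65% with it lower). By edgeR's quasi-likelihood test, Synpo2 again was the 1 gene past the threshold, against 0.503% of 14503 genes, and Vtn was added at any fold, where 1.02% of genes were lower. In bulk tissue, fewer cells of a type and less RNA per cell cannot be told apart.

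**Figure D1:**
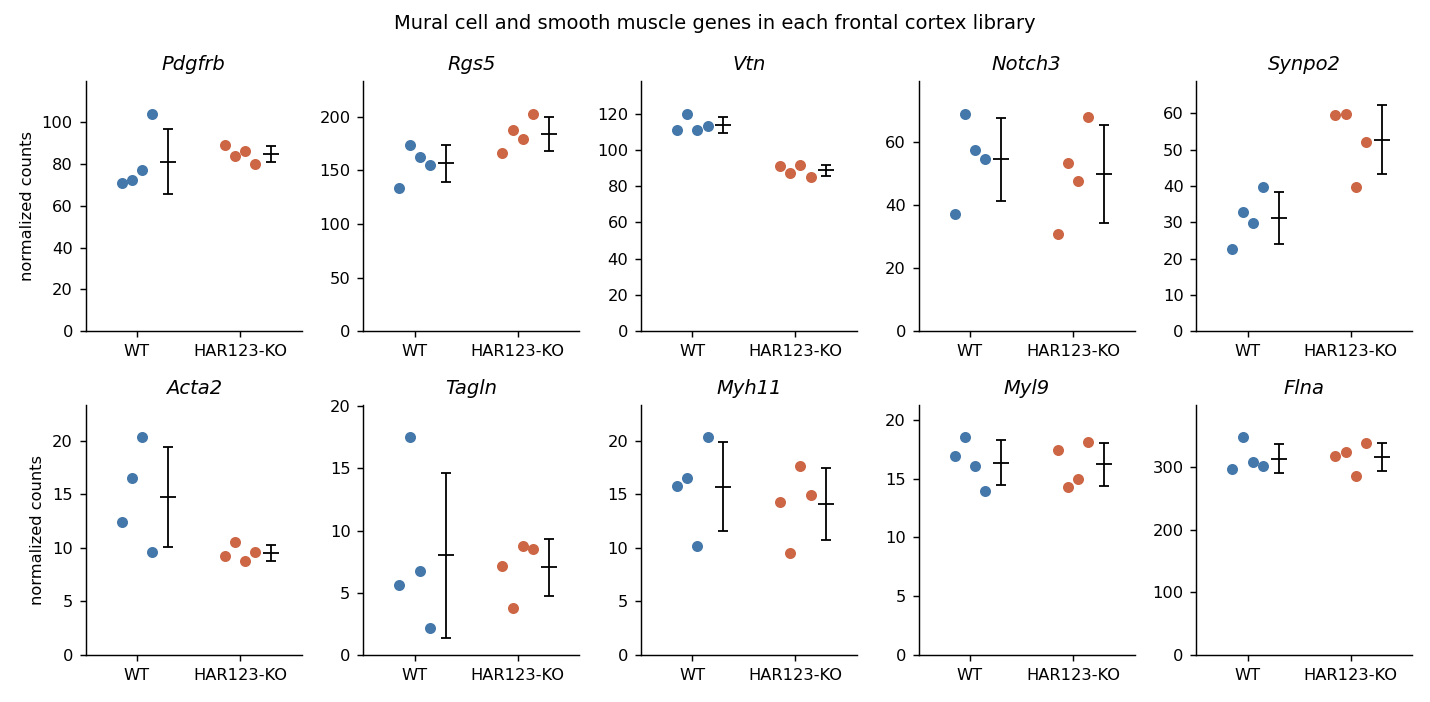
Normalized counts (vertical axes, each from 0) of the 10 genes in each WT and HAR123-KO library (points), with the group mean and SD (n = 4). The groups separate for Vtn, where HAR123-KO lies between 85.1 and 91.6 and WT between 111 and 120, and touch for Synpo2 at 39.6.

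Per kilobase of exon, the WT levels spanned a wide range. Vtn stood highest at 56.2 ± 2.16 normalized counts per kilobase (SD, n = 4), above Rgs5 at 34.4 ± 3.71 and Flna at 33.3 ± 2.44, which did not differ beyond their spread. Pdgfrb at 14.8 ± 2.82 and Myl9 at 14.1 ± 1.65 came next and did not differ beyond their spread. Notch3 at 6.75 ± 1.63, Acta2 at 6.7 ± 2.14 and Tagln at 4.03 ± 3.33 overlapped in spread, and the spread of Tagln also covered Synpo2 at 2.38 ± 0.542 and Myh11 at 2.06 ± 0.551, which overlapped each other. The HAR123-KO order was led by the same 3 genes, with Vtn at 43.7 ± 1.52, Rgs5 at 40.5 ± 3.46 and Flna at 33.6 ± 2.38. Vtn and Rgs5 were thus separated beyond their spread in WT and lay within it in HAR123-KO.

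Among the receptors, Pdgfrb (chr18:61045150-61085061, GRCm38), the PDGF receptor beta that defines mural cells, was counted at 70.9, 72.1, 77.1 and 104 in WT replicates 1 to 4. In HAR123-KO replicates 1 to 4 it was 89.1, 83.7, 86.3 and 79.8, so all 4 values lay inside the WT range. Its log2 fold change (HAR123-KO over WT) was 0.07 ± 0.15 (SE, 95% interval -0.22 to 0.36, adjusted p = 0.98 by DESeq2). On a linear scale, the interval ran from 14.1% lower to 27.9% higher. The ligand gene Pdgfb likewise did not pass, at 67.2 ± 8.52 in WT and 59.9 ± 15.9 in HAR123-KO (adjusted p = 0.924).

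Notch3 (chr17:32120820-32166852), the Notch receptor of arterial smooth muscle and pericytes, was counted at 37.2, 69, 57.6 and 54.6 in WT and at 30.7, 53.2, 47.5 and 68.1 in HAR123-KO. The ranges overlapped almost fully, and replicate 1 was the lowest library of both genotypes. Its log2 fold change was -0.13 ± 0.29 (95% interval -0.70 to 0.43, adjusted p = 0.979). An antisense gene, Gm17276, covers 6.033% of its exon bases and was itself counted at 5.92 ± 1.58 and 12.8 ± 4.36 in WT and HAR123-KO (unadjusted p = 0.0135, too few counts for an adjusted p). The libraries were made with a directional kit, but whether counting used strand is not given in the sources used here.

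Rgs5 (chr1:169655501-169695813) encodes a regulator of G protein signalling and is among the most used pericyte markers. It was counted at 134, 174, 163 and 155 in WT and at 166, 188, 179 and 203 in HAR123-KO. Of the HAR123-KO libraries, 3 lay above the highest WT library. The log2 fold change was 0.23 ± 0.10 (95% interval 0.03 to 0.43), with an unadjusted p of 0.0267 by DESeq2's Wald test across all genes and an adjusted p of 0.44. The difference therefore did not pass.

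Vtn (chr11:78499091-78502324) encodes vitronectin, an adhesive protein that brain pericytes secrete into the vessel wall. It was counted at 111, 120, 111 and 113 in WT and at 91.1, 87.5, 91.6 and 85.1 in HAR123-KO. This was the widest separation among the 10 genes, with a gap of 19.4 normalized counts between the lowest WT and the highest HAR123-KO library. The log2 fold change was -0.36 ± 0.13 (95% interval -0.61 to -0.11), a level lower by 22% on the linear scale. The adjusted p was 0.179 by DESeq2 and 0.0496 by edgeR's quasi-likelihood test, so the call at any fold rests on the tool. Neither tool's fold change reached the minimum of 0.5. Vtn lies on the same chromosome as the deletion, 3.33 Mb from the end of Smg6.

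The 4 pericyte-leaning genes Pdgfrb, Rgs5, Vtn and Notch3 thus did not move one way. Their summed level was 406 ± 36.8 in WT (354 to 435) and 407 ± 24.5 in HAR123-KO (377 to 436), and their median log2 fold change was -0.03, beside 0.00 for all genes tested.

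The contractile genes were scarce in this tissue, and none of the 4 had enough counts for a DESeq2 adjusted p. Acta2 (chr19:34241090-34255590), smooth muscle alpha-actin, was counted at 12.4, 16.5, 20.3 and 9.63 in WT and at 9.21, 10.5, 8.8 and 9.57 in HAR123-KO. The lowest WT library lay among the HAR123-KO values, and 3 HAR123-KO libraries were under it. The log2 fold change was -0.65 ± 0.39 (95% interval -1.41 to 0.11). The unadjusted p was 0.0938 by DESeq2 and 0.0429 by edgeR, whose adjusted p was 0.367.

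Myh11 (chr16:14194535-14291372), the smooth muscle myosin heavy chain a gene largely restricted to smooth muscle, was counted at 15.8, 16.5, 10.2 and 20.3 in WT. In HAR123-KO it was counted at 14.3, 9.51, 17.6 and 14.9, within or next to the WT range. Its log2 fold change was -0.14 ± 0.35 (95% interval -0.82 to 0.55). Myl9 (chr2:156775420-156781658), the regulatory light chain whose phosphorylation starts contraction, was counted at 16.9, 18.5, 16.1 and 13.9 in WT and at 17.4, 14.3, 15 and 18.1 in HAR123-KO. These values interleaved, with a log2 fold change of -0.02 ± 0.32 (95% interval -0.65 to 0.61).

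Tagln (chr9:45929619-45936058), the actin-binding transgelin, had 2 to 17 raw counts per library. Its normalized counts were 5.63, 17.5, 6.78 and 2.14 in WT and 7.17, 3.8, 8.8 and 8.51 in HAR123-KO, so that WT held both the highest and the lowest value. The log2 fold change was -0.19 ± 0.53, and without WT replicate 2 it was 0.52. Tagln is also the gene least separable by sequence. The antisense gene Gm48529 covers 62.42% of its exon bases and Pcsk7 covers 5.433%, and 48.3% of its 100-base stretches recur in transcripts of these genes. No other of the 10 genes shared such a stretch with another gene except Notch3, at 3.61%, with Gm17276.

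The 4 contractile genes summed to 54.8 ± 9.96 normalized counts in WT (46.0 to 69.0) and 46.8 ± 6 in HAR123-KO (38.0 to 51.0), and the groups overlapped. All 4 fold changes were below 0, with a median of -0.16, and every interval included 0, but the sign of Tagln, Myh11 and Myl9 turned when single libraries were left out.

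The promoters of Acta2 and Myl9 are shown because both hold CArG-type motifs, the letters bound by serum response factor in smooth muscle genes. The sequences are from RefSeq (GRCm38.p6) and run 5′ to 3′ on the gene's strand, from 250 bases before the start to 50 after it, with the motifs in capitals. Acta2 is at chr19:34255324-34255623 on the minus strand and Myl9 at chr2:156775214-156775513 on the plus strand.
Acta2: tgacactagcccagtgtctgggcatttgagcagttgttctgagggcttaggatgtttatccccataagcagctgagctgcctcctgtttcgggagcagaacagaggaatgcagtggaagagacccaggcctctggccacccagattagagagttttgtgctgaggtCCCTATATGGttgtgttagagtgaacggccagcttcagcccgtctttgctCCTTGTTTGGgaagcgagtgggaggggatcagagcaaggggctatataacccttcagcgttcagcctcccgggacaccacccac
Myl9: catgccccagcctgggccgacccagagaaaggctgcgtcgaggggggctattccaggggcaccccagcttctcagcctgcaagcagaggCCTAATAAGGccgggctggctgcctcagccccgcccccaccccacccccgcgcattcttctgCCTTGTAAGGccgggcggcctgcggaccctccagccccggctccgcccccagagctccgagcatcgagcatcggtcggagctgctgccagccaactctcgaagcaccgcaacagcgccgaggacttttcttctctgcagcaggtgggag
Myl9 holds a full CArG box, CCTAATAAGG, at position -161 from the start, and a looser form with a C or G in the centre, CCTTGTAAGG, at -99. Acta2 holds only the looser form, as CCCTATATGG at -84 and CCTTGTTTGG at -34. Of 32851 mouse promoters of this length, 1.63% held the full box and 9.98% the looser form, which includes the full one. Both patterns read alike on either strand. Promoters matched for 7 of the 10 genes, all but Pdgfrb, Tagln and Myh11, and no CArG form or MEF2 site (described with Synpo2) was found in the windows of Rgs5, Vtn, Notch3 and Flna. Srf itself was at 116 ± 11.8 in WT and 117 ± 1.93 in HAR123-KO (log2 fold change 0.02 ± 0.12), its coactivator Mrtfa at 241 ± 24.6 and 247 ± 21.5, and Myocd at 1.88 ± 1.35 and 2.15 ± 0.801.

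The remaining 2 genes encode actin-organizing proteins that are not confined to mural cells. Flna (chrX:74223461-74249820), filamin A, crosslinks actin filaments in many cells, including endothelium and microglia. It was counted at 297, 347, 308 and 301 in WT and at 317, 324, 285 and 338 in HAR123-KO. The values interleaved, and the log2 fold change of 0.01 ± 0.08 had the narrowest interval of the 10 genes, -0.14 to 0.16 (adjusted p = 0.995).

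Synpo2 (chr3:123076519-123236149) encodes synaptopodin 2 (myopodin), an actin-bundling protein of smooth and striated muscle that is also transcribed in some neurons. It was counted at 22.5, 32.9, 29.7 and 39.6 in WT and at 59.4, 59.9, 39.6 and 52.1 in HAR123-KO. Every HAR123-KO library lay above every WT library, but the lowest exceeded the highest by only 0.036 normalized counts. The means were 31.2 ± 7.1 and 52.8 ± 9.45 (SD, n = 4), a ratio of 1.69. The log2 fold change was 0.75 ± 0.21 (95% interval 0.33 to 1.17), with an adjusted p of 0.0281 by DESeq2, 0.01 by edgeR and 0.0336 by limma-voom. Synpo2 was higher in HAR123-KO in all 16 alternatives, at 0.64 to 0.88, but the call held in 7 and was lost in 9. Leaving out 1 library lost it in 6 of 8 cases. With adjusted p-values, these were WT replicate 1 (0.331), WT replicate 2 (0.104), HAR123-KO replicate 1 (0.176) and HAR123-KO replicate 2 (0.249), and without WT replicate 3 or HAR123-KO replicate 4 the gene got no adjusted p. With no independent filter the adjusted p was 0.0617, and with a minimum of 10 counts in 4 libraries it was 0.0549. A replicate block in the model lost the call too (log2 fold change 0.76 ± 0.319, unadjusted p = 0.0178 by DESeq2). Scaled to nuclear protein-coding totals, the groups overlapped.

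Markers of other cells moved beside Synpo2. All 10 striatal genes had positive fold changes, with a median of 0.47 on the log2 scale, and 3 passed the threshold as higher, against 0.227% of all genes, and 8 passed at any fold, against 0.972%. Among them was Penk, an opioid peptide gene (log2 fold change 0.80 ± 0.05). The dopamine receptor Drd2 rose by 0.65 ± 0.11. The 3 past the threshold, Penk, Drd2 and the adenosine receptor gene Adora2a, were already in the paper's list for this tissue, so the shares are descriptions. The summed level of 8 oligodendrocyte genes was 15217 to 15717 in WT and 17272 to 17619 in HAR123-KO. For thalamic relay neurons, the sums of 8 genes overlapped at 780 to 819 and 795 to 844, with Rora at 512 ± 12.4 and 553 ± 40.1, Tcf7l2 at 41.5 ± 3.46 and 44.3 ± 4.65, and Gbx2 at 0 in every library. The thalamic sums are mostly Rora, and of the 7 thalamic genes with an adjusted p, 3 had positive and 4 negative fold changes, with a median of -0.15. The part of these cells in the Synpo2 difference was not tested.

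The promoter of Synpo2 is shown because the gene is the only one of the 10 that passed. It lies at chr3:123236100-123236399 on the minus strand (RefSeq, GRCm38.p6), and the capitals mark a match to the MEF2 site, the letters bound by the MEF2 factors of muscle and neurons.
Synpo2: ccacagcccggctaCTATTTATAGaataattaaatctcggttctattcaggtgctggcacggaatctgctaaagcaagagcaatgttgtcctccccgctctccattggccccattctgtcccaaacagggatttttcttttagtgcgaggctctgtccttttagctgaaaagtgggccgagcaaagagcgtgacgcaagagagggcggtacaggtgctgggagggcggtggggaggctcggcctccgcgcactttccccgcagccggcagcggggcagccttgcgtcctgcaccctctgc
The match, CTATTTATAG, begins at position -236. It was present in 0.557% of the 32851 promoters, and the pattern reads alike on both strands. Neither form of the CArG box was found in this window. Mef2c, the main MEF2 gene of cortical neurons, was at 3220 ± 54.7 in WT and 3144 ± 32.1 in HAR123-KO (adjusted p = 0.823).

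**Figure D2:**
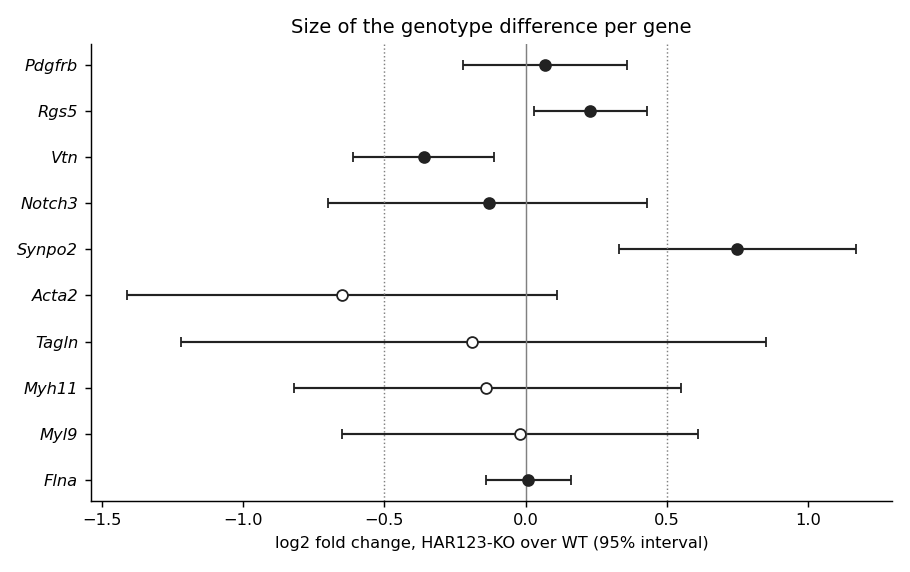
Log2 fold change of HAR123-KO over WT (horizontal axis) for each of the 10 genes, with the 95% interval as a bar. Filled points had enough counts for an adjusted p and open points did not, dotted lines mark a log2 fold change of 0.5 in either direction, and the intervals exclude 0 for Synpo2, Rgs5 and Vtn.

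Near copies of the contractile and cytoskeletal genes were examined because reads could be misassigned among them. In this set of 20 family members, the cytoplasmic actin Actb passed at any fold, 1 of 15 tested against 1.69% of all genes (5285 ± 148 in WT, 5646 ± 117 in HAR123-KO, log2 fold change 0.10 ± 0.03, adjusted p = 0.0169 by DESeq2 and 0.0787 by edgeR), and none passed the threshold by DESeq2 or edgeR, with 3 of 15 at an unadjusted p under 0.05 against 8.78%. The skeletal actin Acta1 was at 23.7 ± 3.21 and 25.1 ± 3.86, and cardiac Actc1 was at 0 in every library. Synpo, the relative of Synpo2 in dendritic spines, had a log2 fold change of -0.11 ± 0.05 (adjusted p = 0.406), opposite in sign to Synpo2.

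Other mural genes were read from 3 further lists of 69 genes, and none passed the threshold by DESeq2, edgeR or limma-voom. Of the 34 that got an adjusted p, 13 had positive and 21 negative fold changes, with a median of -0.02, and 8 had an unadjusted p under 0.05, against 8.78% of all genes tested. Counting also the genes without an adjusted p, 12 of 69 had one, 3 higher and 9 lower, beside 1357 of all 29947 genes with counts, 721 higher and 636 lower. At any fold, 2 passed by DESeq2 and 3 by edgeR, against 1.69% and 2.28% of all genes tested by each.

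Among 16 other pericyte genes, 7 got an adjusted p, 1 with a positive and 6 with negative fold changes and a median of -0.10. None had an adjusted p under 0.05 by DESeq2 or edgeR. By unadjusted p under 0.05, 3 of the 7 differed, against 8.78% of all genes tested, and Anpep, which got no adjusted p, did so too. The proteoglycan NG2 gene Cspg4, shared with oligodendrocyte precursors, was at 77.1 ± 12.3 in WT and 96.5 ± 11.8 in HAR123-KO (adjusted p = 0.404). The potassium channel gene Kcnj8 was at 7.39 ± 2.46 and 9.85 ± 3.69, too few for an adjusted p, and its partner Abcc9 at 27.2 ± 7.48 and 25.8 ± 5.69. In the other direction, the pericyte transporter gene Atp13a5 was at 56.1 ± 12.2 and 39.9 ± 3.69 with no overlap (adjusted p = 0.317). Anpep, the surface peptidase CD13, was counted at 19.1, 20.6, 15.3 and 21.4 in WT and at 5.12, 14.3, 1.76 and 14.9 in HAR123-KO, and its adjusted p was 0.0816 by edgeR. The summed level of the list, 2218 to 2291 in WT and 2109 to 2127 in HAR123-KO, was mostly Rgs4, which cortical neurons also express (1802 ± 25.1 and 1693 ± 20, adjusted p = 0.227).

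Among 23 other contractile genes, 10 got an adjusted p, 5 with positive and 5 with negative fold changes and a median of 0.01. Pcp4l1, a gene of smooth muscle and of some neurons, rose from 221, 248, 229 and 236 in WT to 274, 300, 281 and 288 in HAR123-KO. Its groups did not overlap, and the log2 fold change of 0.29 ± 0.08 passed at any fold (adjusted p = 0.0228, and 0.0505 with no independent filter) but not the minimum of 0.5. Calponin (Cnn1), a defining contractile marker, was near 0 in both groups, at 2.65 ± 2.14 and 0.256 ± 0.512 (unadjusted p = 0.0352 by DESeq2, no adjusted p). Casq2, a calcium store protein gene, was at 9.15 ± 2.59 in WT and 3.84 ± 2.81 in HAR123-KO with no overlap (log2 fold change -1.25 ± 0.57, unadjusted p = 0.0281, no adjusted p). With Pcp4l1, these were the 3 of 23 at an unadjusted p under 0.05, 1 higher and 2 lower, beside 1357 of all 29947 genes with counts. Only Pcp4l1 of the 3 got an adjusted p. Myosin light chain kinase (Mylk) was at 44.8 ± 9.01 and 43.7 ± 7.58.

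Among 30 ligand, receptor and transcription factor genes of mural recruitment, 17 got an adjusted p, 7 with positive and 10 with negative fold changes. By unadjusted p under 0.05, 4 of the 17 differed, against 8.78% of all genes tested. Epas1, the hypoxia-inducible factor 2 alpha gene used by pericytes, endothelium and astrocytes, fell from 612, 609, 619 and 619 to 538, 550, 551 and 529. No library overlapped, and the log2 fold change was -0.18 ± 0.05 (adjusted p = 0.0452, and 0.0996 with no independent filter). With a library left out, neither Epas1 nor Pcp4l1 nor any other gene of the 3 lists passed at any fold in 6 of 8 cases. The sphingosine phosphate receptor S1pr1, of endothelium and astrocytes, had a log2 fold change of -0.22 ± 0.07 with an adjusted p of 0.0673 by DESeq2 and 0.016 by edgeR. Beside both, 8 astrocyte genes summed to 21784 to 22434 in WT and 20139 to 20680 in HAR123-KO, 6 of them with negative fold changes, and Slc1a2, Slc1a3 and Gja1 fell at an adjusted p under 0.05, against 0.713% of all genes. The part of astrocytes in the Epas1 and S1pr1 values was not tested. The Notch ligand Jag1 was at 30 ± 2.48 in WT and 35.7 ± 5.32 in HAR123-KO, and Notch1 at 230 ± 15.5 and 202 ± 14.4 (adjusted p = 0.52).

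Whether lower endothelial genes were matched in mural genes was asked by setting both beside all genes tested. Of 26 endothelial and blood-brain barrier genes, 20 got an adjusted p, and 19 of these had negative fold changes with a median of -0.20. Among the mural genes, 2 of 6 were negative with a median of 0.04, and among all genes tested 6461 of 12758 were negative with a median of 0.00. These 6 include Flna and Synpo2, which are not confined to mural cells. The 4 pericyte-leaning genes alone had 2 negative and a median of -0.03. Of the other mural lists, the pericyte list had 6 of 7 tested genes negative (median -0.10), the contractile list 5 of 10 (0.01) and the signalling list 10 of 17 (-0.04). Counting also the genes without an adjusted p, the medians were -0.21 for the endothelial list and -0.08 for the 10 mural genes. The difference between the lists was not tested.

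By unadjusted p under 0.05, 5 of the 20 tested endothelial genes differed, all lower, against 4.27% of all genes tested. Vwf, the von Willebrand factor gene of larger vessels, fell by 0.90 ± 0.16 on the log2 scale, from 84.4, 94.7, 94.9 and 93.1 in WT to 41, 43.7, 50.2 and 62.7 in HAR123-KO (adjusted p = 7.34e-06). It was 1 of 20, where 0.0705% of all genes passed as lower. Vwf, too, was already in the paper's list for this tissue, so this share is a description. Ly6a, an endothelial surface antigen gene, was at 29.8 ± 4.46 and 16.5 ± 2.87 and passed by edgeR (adjusted p = 0.0325) but not by DESeq2 (0.106). The pan-endothelial Pecam1 had a log2 fold change of -0.18 ± 0.27 and the tight junction gene Cldn5 one of -0.56 ± 0.28 (adjusted p = 0.535).

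Summed levels per library separated the genotypes for the endothelial list and not for the 10 mural genes, while of the 3 other mural lists 1 separated as higher, 1 as lower and 1 overlapped. The endothelial list was at 1503 to 1625 in WT and 1311 to 1398 in HAR123-KO, and without Vwf at 1419 to 1530 and 1270 to 1336, with no overlap in either case. The 10 mural genes were at 724 to 884 in WT and 779 to 877 in HAR123-KO, so the HAR123-KO range lay inside the WT range. These sums are weighted by the abundant genes, Flna among the 10 mural genes in particular. The 69 other mural genes together summed to 11410 to 11656 in WT and 11193 to 11364 in HAR123-KO, lower with no overlap, and much of that sum was Mef2c and Rgs4, which cortical neurons express. Within them, the other contractile list was higher with no overlap, at 2113 to 2174 and 2185 to 2201, and the other pericyte list lower, while the signalling list overlapped at 6954 to 7222 and 6895 to 7050. The contractile list's mean sum went from 2151 to 2192, a smaller step than that of Pcp4l1 alone, from 233 to 286.

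**Figure D3:**
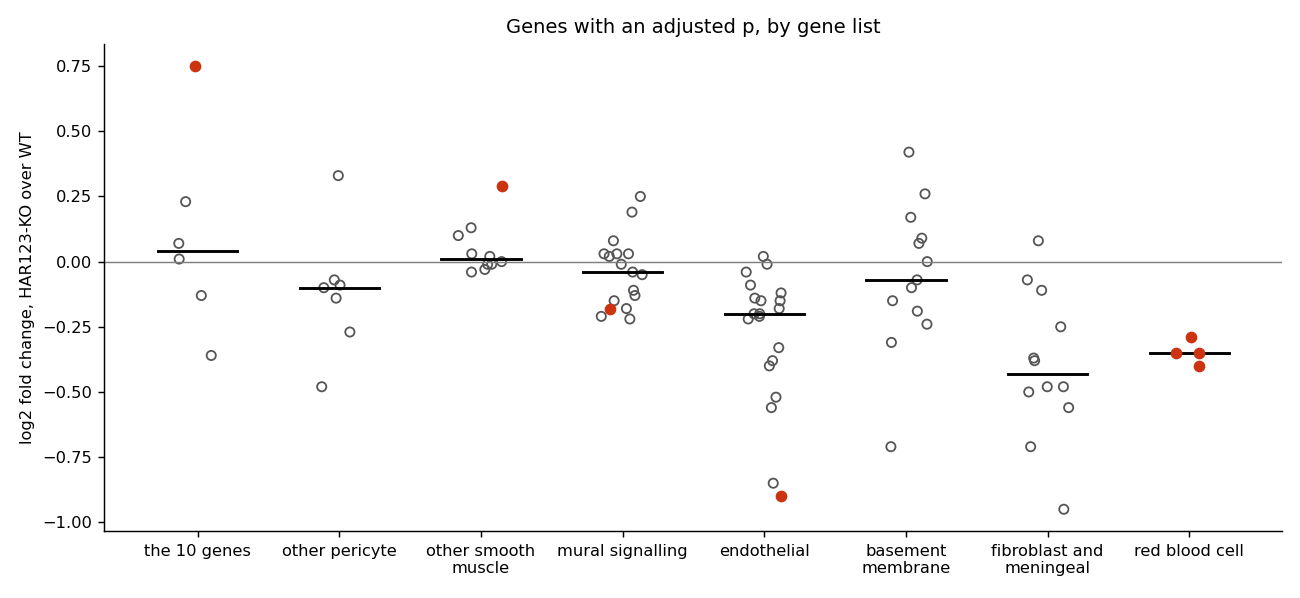
Log2 fold change of HAR123-KO over WT (vertical axis) of each gene with a DESeq2 adjusted p, by gene list, with the list's median as a bar and genes with an adjusted p under 0.05 filled. The endothelial median is -0.20 with 19 of 20 genes below 0, and the 10 mural genes have a median of 0.04 over the 6 plotted.

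Genes of other vessel-associated cells and of blood were read the same way. Of 17 perivascular and meningeal fibroblast genes, 12 got an adjusted p and 11 of these had negative fold changes, with a median of -0.43. None passed by DESeq2, with 4 at an unadjusted p under 0.05, against 8.78% of all genes tested. The meningeal laminin gene Lama1 was the 1 gene of the list past the threshold by edgeR (log2 fold change -0.95 ± 0.29 by DESeq2, edgeR adjusted p = 0.0218), against 0.503% of all genes. The fibroblast sum was 555 to 591 in WT and 440 to 494 in HAR123-KO, while Col1a1 was at 44.2 ± 6.06 and 37.2 ± 6.76 and Col1a2 at 54.7 ± 1.81 and 52.2 ± 5.51. The 13 basement membrane genes, which mural and endothelial cells both make, had a median of -0.07 (5 positive, 8 negative) and overlapping sums. None passed by DESeq2 or edgeR, with 3 of 13 at an unadjusted p under 0.05, against 8.78% of all genes tested. Red blood cell genes summed to 1523 to 1681 in WT and 1238 to 1302 in HAR123-KO, and all 4 with an adjusted p fell at any fold, against 0.713% of all genes, including the alpha-globin Hba-a1 (log2 fold change -0.35 ± 0.06), whose near-identical copy Hba-a2 may share its reads. Perivascular macrophage genes overlapped in sum at 24.7 to 48.1 and 23.5 to 39.9. F13a1 was the 1 gene among them past the threshold by edgeR, against 0.503% of all genes (13.2 ± 2.1 in WT, 4.31 ± 4.19 in HAR123-KO, adjusted p = 0.0222). The part of blood and meningeal content in the Vtn and Acta2 values was not tested.

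**Figure D4:**
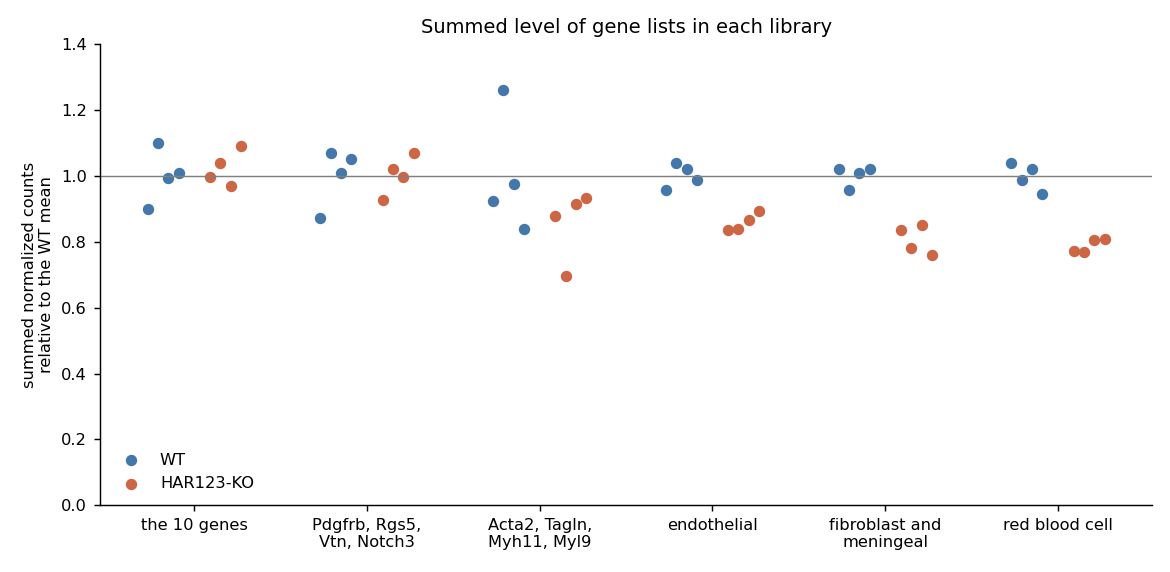
Summed normalized counts of gene lists in each library, relative to the WT mean (vertical axis, from 0), for WT and HAR123-KO (points). The sums of the 10 mural genes and of their pericyte-leaning and contractile subsets overlap between genotypes, while the endothelial, fibroblast and red blood cell sums do not.

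Among the libraries, WT replicate 2 stood at the top for the contractile genes. It held the highest value of 5 of the 10 genes. As a mean of the standardized log2 values of Acta2, Tagln, Myh11 and Myl9, it was at 1.23, and the other WT libraries at 0.18, 0.13 and -0.63. The HAR123-KO libraries were at 0.01, -1.06, -0.10 and 0.25. Among 12377 genes averaging 20 or more normalized counts, those whose log2 levels followed this profile most closely were Bcl6, a transcriptional repressor (Pearson r = 0.954), Rock1, the kinase that sustains myosin light chain phosphorylation (0.942), Inafm1 (0.935), Wipi1 (0.931) and Csmd1 (0.914). These values describe 8 libraries and carry no test, since all points share the same libraries and size factors and the genes were picked as the extremes of many.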

How the data were processed

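Total RNA from mouse frontal cortex was depleted of ribosomal RNA and made into directional paired-end libraries (4 WT, 4 HAR123-KO). The authors aligned reads to GRCm38 with STAR 2.5.2b and deposited raw featureCounts counts per gene (exons). How strand and multi-mapping reads were handled is not given in the sources used here. All 55536 gene identifiers matched GENCODE M21, and no column was unused.

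From these counts, DESeq2 1.42.0 in R 4.3.3 was fitted to all genes (two-sided Wald test for genotype, no other term, median-of-ratios scaling, Benjamini-Hochberg adjustment, independent filter tuned to 0.1, which removed genes with a mean under 17.55 normalized counts). Calls used the study's limits for this tissue (adjusted p under 0.05, log2 fold change beyond 0.5 in either direction). The edgeR 4.0.16 and limma 3.58.1 (voom) fits were alternatives, with other size factors, filters, a replicate block and each library left out in turn. The fits were tested on simulated counts. Normalized counts are counts divided by size factors. ± is the SD for levels and the SE for fold changes.

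Libraries of the same genotype differed only a little beyond sampling noise (chi-square per degree of freedom 1.208 to 1.305). Libraries of different genotypes differed more (1.577 to 1.718). These values cannot tell whether the libraries of a genotype are separate animals. The members and gene lists were chosen with earlier results of these data known. All 10 members are named, with, from each other list, genes past an adjusted p of 0.05 or else the 2 with the smallest p, and defining markers. Genes named for contrast (Atp13a5, Ly6a, Lama1, F13a1, Abcc9, Casq2, Synpo, Drd2, Penk, S1pr1, Notch ligands and receptors, and transcription factors of contractile genes) were chosen after their values were seen.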

Additional observations from a re-analysis of the deposited data

How the results depend on the processing

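Synpo2, the 1 gene of the 10 past the threshold, also passed with edgeR, limma-voom, TMM factors, library totals and nuclear protein-coding totals as size factors. The count was 0 with no independent filter, with at least 10 counts in 4 libraries and at an adjusted p under 0.01 with a log2 fold over 1, and 0 to 1 with a library left out. At any fold it was 2 with edgeR (Vtn joined), 0 with no filter or the count minimum, and 0 to 1 with a library left out. Of 10 genes, 2 did not overlap between groups, 1 with protein-coding totals, and 2 to 4 with a library left out (4 without WT replicate 4). Endothelial calls were 1 in the report, 2 with edgeR and limma-voom at either limit, 0 at the stricter limit, and 0 to 1 with a library left out (0 without HAR123-KO replicate 4, a fit in which 20 of 26 endothelial genes got no adjusted p and the list median was -0.27). Other mural genes past the threshold stayed at 0 in all 17 alternatives. At any fold there were 2 in the report, 1 with library totals, protein-coding totals or the count minimum, 0 with no filter, and 0 to 1 with a library left out.

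Deviations of same-numbered libraries correlated at -0.0154 to 0.0177 over 8793 genes. Libraries of a genotype differed only a little beyond sampling noise (chi-square per degree of freedom 1.208 to 1.305), so these correlations cannot show whether replicate numbers paired the libraries. With the replicate block, 0 mural genes passed at either limit, as did 0 endothelial and 0 other mural genes, and the table as a whole gave 9 calls in place of 38. Calls over all genes numbered 73 with edgeR.

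The log2 fold change of a mural gene changed sign in 14 of 157 alternatives, and in no case was the gene past the threshold. Tagln was at 0.07 with the block, 0.52 without WT replicate 2 and 0.03 without HAR123-KO replicate 2. Myh11 was at 0.01 without WT replicate 4 and 0.02 without HAR123-KO replicate 2, and Notch3 at 0.03 without HAR123-KO replicate 1. Myl9 was at 0.02 with library totals, 0.04 without WT or HAR123-KO replicate 2 and 0.02 without HAR123-KO replicate 3. Flna was at -0.01 without WT replicate 1 or 4, -0.00 without HAR123-KO replicate 2 and -0.02 without HAR123-KO replicate 4. The cause was not tested. The lowest or highest values on the other side with a library left out were -0.49 for Tagln, -0.31 for Myh11, -0.32 for Notch3, -0.09 for Myl9 and 0.06 for Flna. Depth limits the 4 contractile genes, which had 2 to 24 raw counts per library.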
